A study of Mus musculus with 12 samples.

Results

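The Kv3 potassium channels are built from subunits such as those encoded by Kcnc1 (Kv3.1), Kcnc2 (Kv3.2) and Kcnc4 (Kv3.4). Every array probe whose platform annotation names Kcnc1, Kcnc2 or Kcnc4 was taken, which gave 3 genes and 5 probes, of 21643 named genes with a kept probe and 39429 gene probes on the array. Kcnc1 had 3 probes, Kcnc2 had 1 and Kcnc4 had 1. All 5 probes passed the filter on dim spots, which kept 39239 gene probes, and each was above background on 12 of 12 arrays with 0 saturated spots.

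RNA from the hippocampus of CSS1, CSS2 and Bl6 mice at postnatal day 14 was hybridised on dual-colour arrays, with 4 mice per strain and 1 array per mouse. Bl6 is C57BL/6J, and CSS1 and CSS2 were taken from their names as chromosome substitution strains for chromosomes 1 and 2 on the same background. The labels state neither the substituted chromosome nor its donor, and no mouse was treated. The tissue label is hippocampus while the design text speaks of brains. Each mouse was set against 1 pool of Bl6 RNA, so values are log2 sample over pool, and 2 mice of each strain carried Cy5 and 2 carried Cy3. All 6 measured hippocampus markers were above background on all arrays. So were the measured markers of thalamus, neocortex, cerebellum and choroid plexus, so this does not identify the tissue. Arrays had a median sample intensity of 188 to 408, with local background medians of 36 to 42.

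Kv3 channels open only at strongly depolarised potentials and close fast, so they repolarise a spike quickly without preventing the next one. In the hippocampus Kcnc1 and Kcnc2 are best known from fast-spiking parvalbumin interneurons, with Kcnc2 also in some somatostatin cells, and Kcnc4 is known from mossy fibre terminals of dentate granule cells. The series title concerns febrile seizure susceptibility, and the comparisons ask how each substitution strain differs from Bl6.

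The promoter windows of the 3 genes are shown because the Kcnc2 probe and 1 of the 3 Kcnc1 probes passed the test in one strain and the Kcnc4 probe did not. They come from RefSeq (GRCm38.p6), run 5′ to 3′ on the gene's strand from 250 bases before to 50 bases after an annotated start, and have GC boxes (GGGCGG) and CRE half-sites (TGACG) on either strand in capitals. The windows are Kcnc1 at chr7:46396218-46396517 on the plus strand, Kcnc2 at chr10:112269767-112270066 on the plus strand and Kcnc4 at chr3:107458849-107459148 on the minus strand.
Kcnc1: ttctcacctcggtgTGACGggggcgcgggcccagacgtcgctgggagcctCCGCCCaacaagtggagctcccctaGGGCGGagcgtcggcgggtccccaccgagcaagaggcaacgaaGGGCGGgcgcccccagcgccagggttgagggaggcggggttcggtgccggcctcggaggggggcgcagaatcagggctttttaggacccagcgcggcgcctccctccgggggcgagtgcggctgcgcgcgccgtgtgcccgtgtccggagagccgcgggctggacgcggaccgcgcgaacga
Kcnc2: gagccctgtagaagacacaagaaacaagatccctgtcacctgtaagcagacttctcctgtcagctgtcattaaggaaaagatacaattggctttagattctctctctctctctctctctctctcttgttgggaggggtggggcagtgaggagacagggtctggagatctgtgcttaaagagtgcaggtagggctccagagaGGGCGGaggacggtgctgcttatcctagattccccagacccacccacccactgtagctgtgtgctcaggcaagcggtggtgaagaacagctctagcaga
Kcnc4: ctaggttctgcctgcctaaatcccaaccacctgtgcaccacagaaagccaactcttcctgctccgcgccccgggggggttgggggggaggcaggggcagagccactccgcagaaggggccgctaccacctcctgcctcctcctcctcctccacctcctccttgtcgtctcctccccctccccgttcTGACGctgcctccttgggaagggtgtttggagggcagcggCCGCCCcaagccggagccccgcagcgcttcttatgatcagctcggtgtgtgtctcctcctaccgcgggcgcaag
The Kcnc1 window held 3 GC boxes and 1 CRE half-site, the Kcnc2 window 1 GC box and 0 CRE half-sites, and the Kcnc4 window 1 GC box and 1 CRE half-site, with no overlap between the motifs. A GC box stood in 35.7% and a CRE half-site in 20.8% of all 32851 windows of the table, which has a window per annotated start. GC content was 74.7% in the Kcnc1 window, 52.7% in the Kcnc2 window and 66.7% in the Kcnc4 window, against a median of 52.7% over all windows. Kcnc2 has 4 annotated starts in the table, of which the most 5′ is shown, and the windows of the other 3 held 0 GC boxes and 0 CRE half-sites. No window held the TATA box letters TATAAA, which 13.6% of all windows held. Each of the shown windows is placed on a start that lies inside the gene's annotated span, downstream of its outermost 5′ end. These matches describe letters only, and which start is used in these mice was not measured.

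None of the 3 genes lies on chromosome 1 or 2. Kcnc1 spans chr7:46396219-46438706, Kcnc2 spans chr10:112269898-112466304 and Kcnc4 spans chr3:107438298-107460287 (GRCm38.p6). The probes are numbered by brightness within a gene, and neither the letters of a probe nor its place in the transcript were used here.

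In CSS1 against Bl6 hippocampus 1 of the 3 Kcnc1 probes and the Kcnc2 probe were higher, and the other 2 Kcnc1 probes and the Kcnc4 probe did not pass the test. Of the 5 Kv3 probes, 2 rose in CSS1 at an adjusted p under 0.05, in a comparison where 1.73% of all tested probes were called and 0.907% were called higher. At an unadjusted p under 0.05 the count was 4 of 5, against 11.1% of all tested probes. All 5 fitted differences were positive, with a median of 0.18 on the log2 scale against -0.003 over all tested probes. In bulk tissue a change in the number of cells of a type and a change in RNA per cell cannot be told apart.

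**Figure D1:**
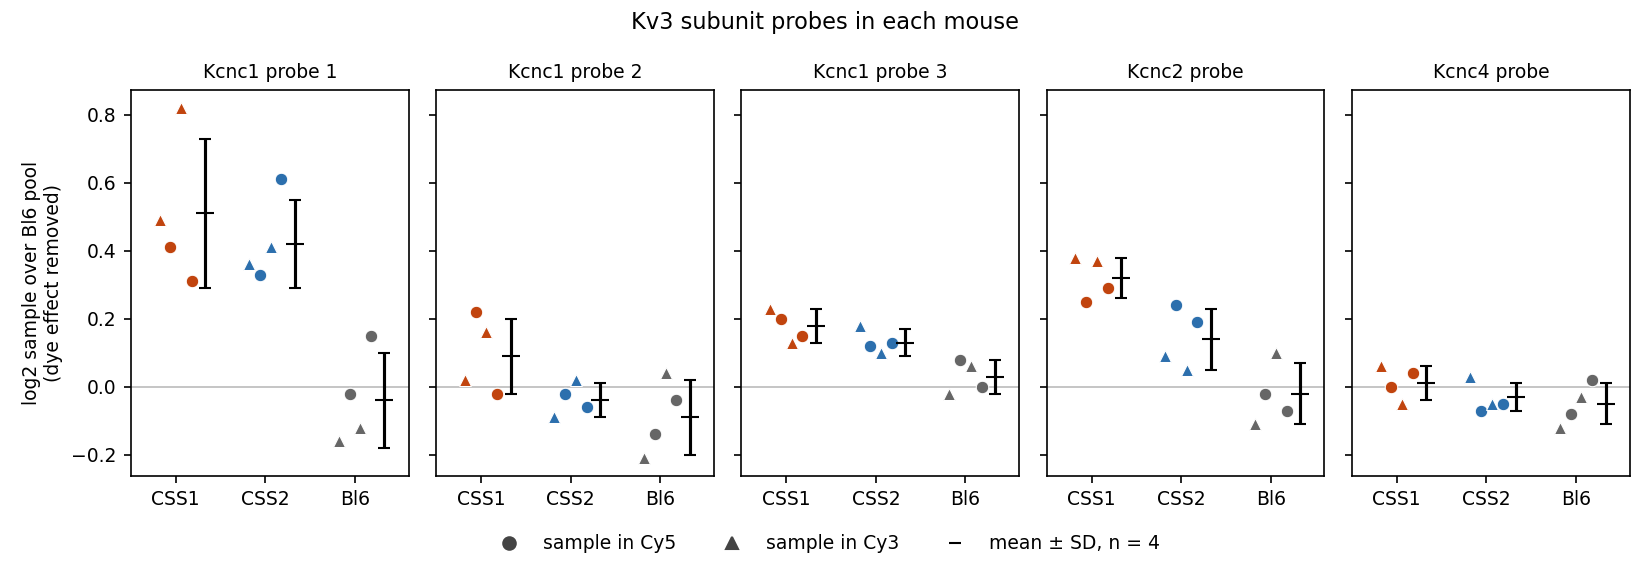
Log2 sample over Bl6 pool for each mouse (points, dye effect removed) on the 5 Kv3 probes, by strain (CSS1, CSS2, Bl6), with circles for samples in Cy5, triangles for samples in Cy3 and the mean ± SD of 4 mice beside them. On Kcnc1 probe 1 every CSS1 and CSS2 mouse sits at 0.31 or above while the highest Bl6 mouse is at 0.15, and on the Kcnc4 probe the strains overlap between -0.12 and 0.06.

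Kcnc1 encodes Kv3.1, the subunit most closely tied to high-frequency firing. On its brightest probe (probe 1, MMAC012043) the log2 sample over pool was 0.49, 0.41, 0.82 and 0.31 in CSS1 mice 3, 6, 9 and 12. It was 0.36, 0.33, 0.41 and 0.61 in CSS2 mice 1, 4, 7 and 10, and -0.16, -0.02, -0.12 and 0.15 in Bl6 mice 2, 5, 8 and 11. All mice of both substitution strains stood above all Bl6 mice, and CSS1 mouse 9 and CSS2 mouse 10 were the highest of their strains.

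The mean on Kcnc1 probe 1 was 0.51 ± 0.22 in CSS1 and -0.04 ± 0.14 in Bl6 (SD, n = 4 each). The difference of 0.54 on the log2 scale (SE 0.11, 95% interval 0.31 to 0.78) is 1.46-fold and passed the test (adjusted p = 0.0295). All 4 CSS1 mice stood above all Bl6 mice, which held for 3.71% of all tested probes. Within the arrays that carried the sample in Cy5 the difference was 0.30, and within those in Cy3 it was 0.79, with 2 mice per strain in each. The call was lost in a fit without the dye term (0.133), in a fit of CSS1 and Bl6 alone (0.0929) and on leaving out any of 4 mice, namely CSS1 mouse 3 (0.0907) or Bl6 mouse 2 (0.118), 5 (0.085) or 8 (0.0621). Over all alternatives the adjusted p ranged from 0.00548 to 0.133, and without CSS1 mouse 9, the highest mouse, the difference was 0.43 and still called (0.0403).

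In CSS2 the mean on Kcnc1 probe 1 was 0.42 ± 0.13, against -0.04 ± 0.14 in Bl6 (SD, n = 4 each). The difference was 0.46 (SE 0.11, 95% interval 0.22 to 0.70), or 1.38-fold, and missed the threshold (adjusted p = 0.0956). It was 0.40 within the Cy5 arrays and 0.52 within the Cy3 arrays, and 4 of 4 CSS2 mice stood above all Bl6 mice. The adjusted p fell below the threshold under 4 other settings and without CSS1 mouse 9 (0.0181), and the range over all alternatives and left-out mice was 0.0181 to 0.346. CSS2 and CSS1 share the Bl6 mice of these comparisons, so their differences from Bl6 are not independent.

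The other Kcnc1 probes gave smaller differences. Probe 3, the dimmest (MMAC011087), read 0.23, 0.20, 0.13 and 0.15 in CSS1 mice 3, 6, 9 and 12, then 0.18, 0.12, 0.10 and 0.13 in CSS2 mice 1, 4, 7 and 10, and -0.02, 0.08, 0.06 and 0.00 in Bl6 mice 2, 5, 8 and 11. All CSS1 and all CSS2 mice again stood above all Bl6 mice. The difference was 0.15 for CSS1 (95% interval 0.07 to 0.23, adjusted p = 0.0862) and 0.10 for CSS2 (95% interval 0.02 to 0.18, adjusted p = 0.371), and neither passed. With the authors' normalized values the CSS1 difference of probe 3 was 0.16 and passed (0.0458), and with array weights it was 0.15 and passed (0.0356).

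Kcnc1 probe 2 (MMAC018553) lay between -0.02 and 0.22 in CSS1, between -0.09 and 0.02 in CSS2 and between -0.21 and 0.04 in Bl6, so all strains overlapped. Its difference was 0.18 for CSS1 (95% interval 0.04 to 0.32, adjusted p = 0.272) and 0.05 for CSS2 (95% interval -0.09 to 0.19, adjusted p = 0.919). The probes of Kcnc1 therefore disagree in size while every fitted difference from Bl6 was positive.

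The gap between Kcnc1 probes was compared per mouse, which cancels what the probes share on an array. Probe 1 minus probe 2 averaged 0.41 ± 0.20 in CSS1, 0.46 ± 0.14 in CSS2 and 0.05 ± 0.15 in Bl6, and probe 1 minus probe 3 averaged 0.33 ± 0.25, 0.29 ± 0.14 and -0.07 ± 0.15 in the same order (SD, n = 4 each). Each of these 4 gaps against Bl6 had an exact two-sided permutation p of 0.0286, the smallest that 4 against 4 mice can give, and an adjusted p of 0.0644 over the 9 gaps compared. Probe 2 minus probe 3 gave an exact permutation p of 0.543 for CSS1 and 0.457 for CSS2. The probe gaps do not pass after adjustment. As 4 of them had the smallest p this number of mice allows, this does not settle whether the gaps differ between strains.

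**Figure D2:**
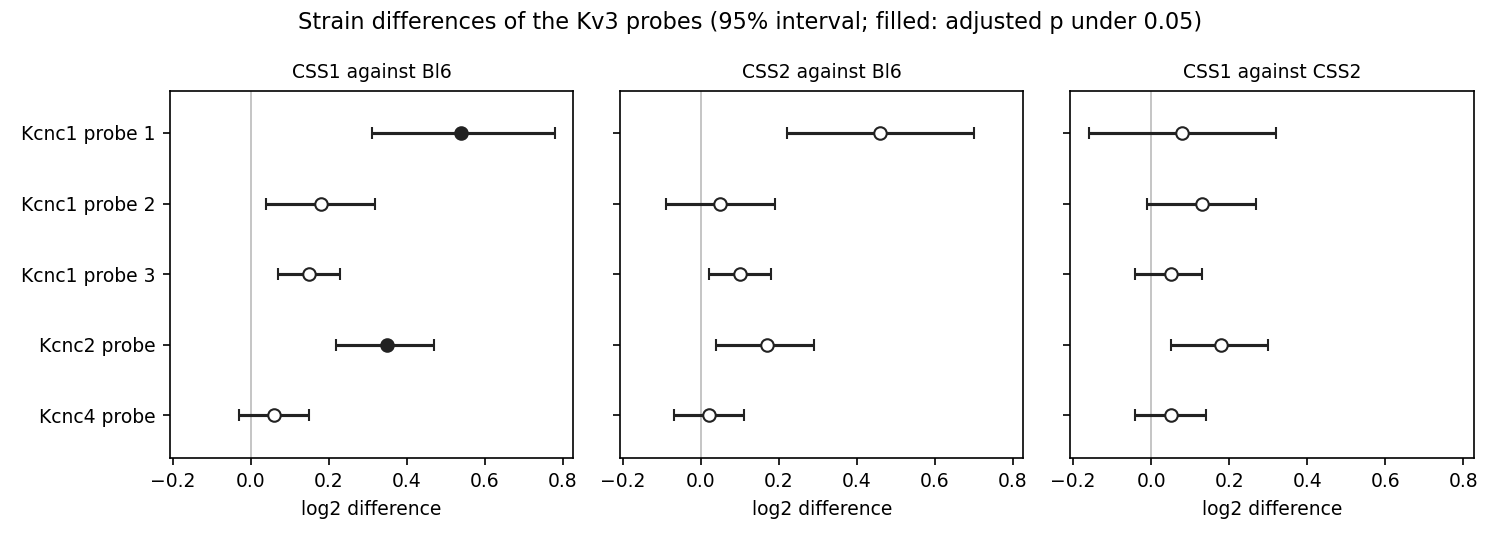
Fitted log2 difference (horizontal axis) with its 95% interval for each Kv3 probe in CSS1 against Bl6, CSS2 against Bl6 and CSS1 against CSS2, with filled points for an adjusted p under 0.05. Kcnc1 probe 1 (0.54) and Kcnc2 (0.35) are filled in CSS1 against Bl6, no point is filled in the other panels, and the Kcnc4 intervals all hold 0.

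Kcnc2 encodes Kv3.2, which forms heteromers with Kv3.1 in fast-spiking cells. Its probe (MMAC006793) read 0.38, 0.25, 0.37 and 0.29 in CSS1 mice 3, 6, 9 and 12. It read 0.09, 0.24, 0.05 and 0.19 in CSS2 mice 1, 4, 7 and 10, and -0.11, -0.02, 0.10 and -0.07 in Bl6 mice 2, 5, 8 and 11. The CSS1 mice formed a narrow range above all other mice, and the CSS2 range overlapped that of Bl6.

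The mean of Kcnc2 was 0.32 ± 0.06 in CSS1 and -0.02 ± 0.09 in Bl6 (SD, n = 4 each). The difference of 0.35 (SE 0.06, 95% interval 0.22 to 0.47) is 1.27-fold and passed the test (adjusted p = 0.0124), with 0.32 within the Cy5 arrays and 0.38 within the Cy3 arrays. The call was lost with median centring in place of loess (0.37, adjusted p = 0.0875), with scale normalization (0.28, adjusted p = 0.105) and without CSS1 mouse 3 (0.0543) or Bl6 mouse 2 (0.054), over a range of 0.00255 to 0.105 for all alternatives. In CSS2 the mean was 0.14 ± 0.09 and the difference from Bl6 was 0.17 (95% interval 0.04 to 0.29, adjusted p = 0.323), with 0.26 within the Cy5 arrays and 0.07 within the Cy3 arrays.

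Kcnc4 encodes Kv3.4, an inactivating Kv3 subunit. Its probe (MMAC002144) read 0.06, 0.00, -0.05 and 0.04 in CSS1 mice 3, 6, 9 and 12, then 0.03, -0.07, -0.05 and -0.05 in CSS2 mice 1, 4, 7 and 10, and -0.12, -0.08, -0.03 and 0.02 in Bl6 mice 2, 5, 8 and 11. The strains overlapped throughout. The difference was 0.06 for CSS1 (95% interval -0.03 to 0.15, adjusted p = 0.68) and 0.02 for CSS2 (95% interval -0.07 to 0.11, adjusted p = 0.965), so larger changes than these intervals hold were not seen on this probe.

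In CSS2 against Bl6, 0 of the 5 Kv3 probes passed limma's test, in a comparison where 0.905% of all tested probes were called. At an unadjusted p under 0.05 the count was 3 of 5, against 9.16% of all tested probes, and 1 of 5 passed the adjusted threshold under 4 alternative settings. Kcnc1 probes 1 and 3 did not overlap between CSS2 and Bl6, with CSS2 above Bl6, which held for 3.43% of all tested probes.

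CSS1 was set directly against CSS2 to ask whether the strains differ from each other. Limma called 0 of the 5 Kv3 probes, against 0.917% of all tested probes, and 1 of 5 at an unadjusted p under 0.05, against 8.14%. That probe was Kcnc2, at 0.32 ± 0.06 in CSS1 and 0.14 ± 0.09 in CSS2 (SD, n = 4 each), with a difference of 0.18 (95% interval 0.05 to 0.30, adjusted p = 0.306). Every CSS1 mouse was above every CSS2 mouse on it, which held for 2.73% of all tested probes, and the difference was 0.06 within the Cy5 arrays and 0.30 within the Cy3 arrays. For Kcnc1 probe 1 the difference was 0.08 (95% interval -0.16 to 0.32, adjusted p = 0.936), and for Kcnc4 it was 0.05 (95% interval -0.04 to 0.14, adjusted p = 0.879).

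**Figure D3:**
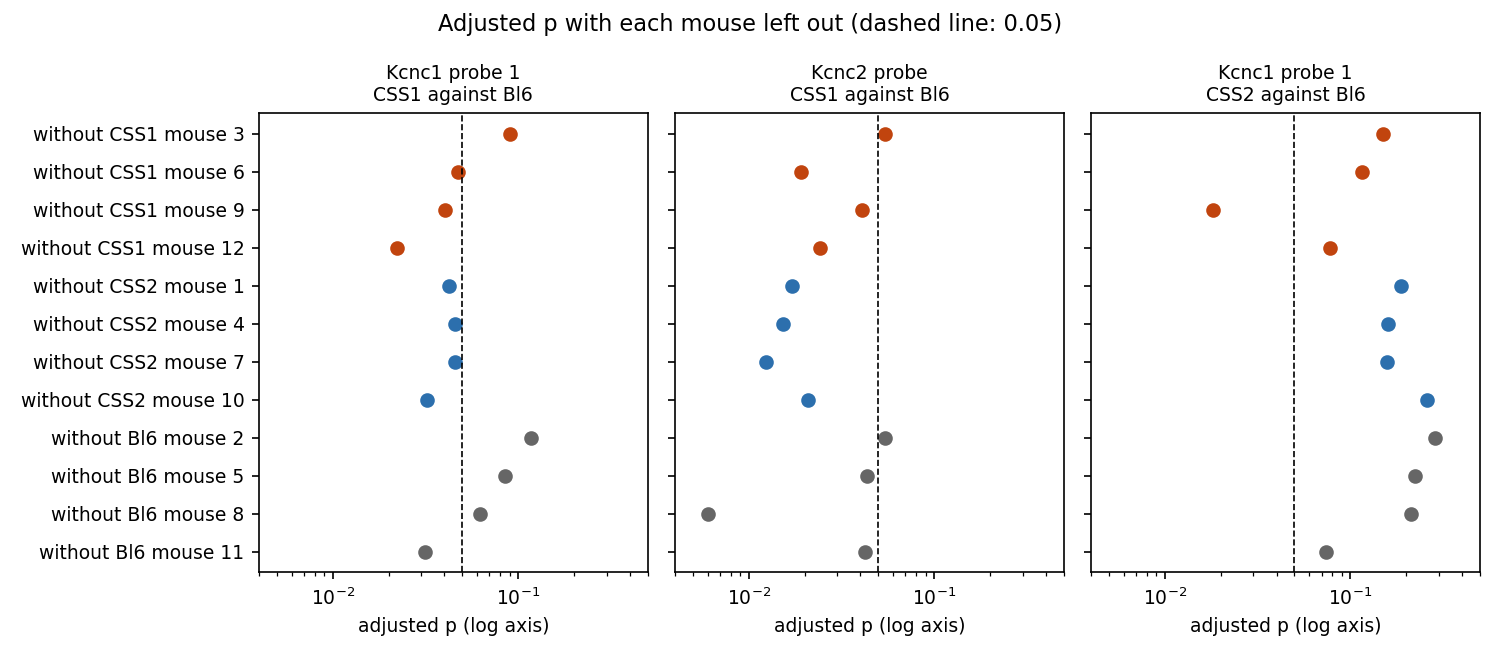
Adjusted p (log axis) of Kcnc1 probe 1 and Kcnc2 in CSS1 against Bl6 and of Kcnc1 probe 1 in CSS2 against Bl6, refitted without each mouse in turn, with points coloured by the strain of the mouse left out and the threshold of 0.05 dashed. Kcnc1 crosses the line without any of 4 mice in CSS1 against Bl6 and Kcnc2 without either of 2, and in CSS2 against Bl6 Kcnc1 is below the line only without CSS1 mouse 9.

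Across the 12 arrays Kcnc1 probe 1 and Kcnc2 had a Pearson correlation of 0.75, which fell to 0.19 for deviations from the strain means. These arrays share the pool and the dye balance, and the values describe the mice without a test. Kcnc2 and Kcnc4 correlated at 0.43 across arrays and -0.05 within strains.

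Subunits and partners that act on Kv3 channels did not pass. Of 8 measured genes of this kind 0 were called in either strain against Bl6, and 0 reached an unadjusted p under 0.05, in comparisons where 2.03% of genes (CSS1) and 1.04% of genes (CSS2) were called by their brightest probe and 12.8% (CSS1) and 9.83% (CSS2) reached an unadjusted p under 0.05. Hax1 had differences of 0.07 in CSS1 (adjusted p = 0.762) and 0.11 in CSS2 (adjusted p = 0.646). Kcne2, an accessory subunit, had -0.09 in CSS1 (adjusted p = 0.784), and Ank3, the axon initial segment scaffold, had -0.09 in CSS2 (adjusted p = 0.8).

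Among 16 genes of fast-spiking interneurons 1 rose in each strain, and it was Pvalb, the calcium buffer that names these cells. Pvalb read 0.51, 0.54, 0.38 and 0.40 in CSS1 mice 3, 6, 9 and 12, then 0.81, 0.46, 0.35 and 0.64 in CSS2 mice 1, 4, 7 and 10, and -0.16, -0.12, 0.09 and 0.06 in Bl6 mice 2, 5, 8 and 11, with no overlap between either strain and Bl6. Such a separation, with the strain above Bl6, held for 3.71% of all tested probes in CSS1 and 3.43% in CSS2. The Pvalb rise was 1.41-fold in CSS1 (0.49, SE 0.09, adjusted p = 0.0252) and 1.51-fold in CSS2 (0.60, SE 0.09, adjusted p = 0.0128). It was lost in both comparisons without the dye term (0.677 in CSS1 and 0.589 in CSS2) and without Bl6 mouse 2 (0.103 in CSS1 and 0.0582 in CSS2) or 5 (0.0902 in CSS1 and 0.0585 in CSS2), in CSS1 also without CSS1 mouse 3 (0.0947) or 6 (0.0669), and in CSS2 also without CSS2 mouse 10 (0.0632). The median difference over the 16 genes was 0.02 in CSS1 and 0.00 in CSS2, with 11 of 16 differences positive in CSS1 and 8 of 16 in CSS2. At an unadjusted p under 0.05 the counts in either direction were 4 of 16 in CSS1 and 6 of 16 in CSS2. Over all genes the shares were 12.8% in CSS1 and 9.83% in CSS2, and 1.17% and 0.661% were called higher. Gad1, a GABA-synthesising enzyme, had 0.24 in CSS1 (adjusted p = 0.0555) and 0.13 in CSS2 (adjusted p = 0.502). Besides Pvalb and Gad1, the genes at an unadjusted p under 0.05 in CSS1 were Kcns3 (0.19) and Sox6 (-0.13). In CSS2 they were Ppargc1a (-0.26), Satb1 (-0.21), Scn1a (-0.16) and Lhx6 (-0.11), all lower than in Bl6.

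Of 11 genes of other interneurons 1 rose in CSS1 and 0 in CSS2, where 1.17% and 0.661% of all genes were called higher. In either direction 4 of 11 in CSS1 and 2 of 11 in CSS2 reached an unadjusted p under 0.05, against 12.8% and 9.83% of all genes. Differences were positive for 9 of 11 genes in CSS1 and 8 of 11 in CSS2. Vip, the neuropeptide of a disinhibitory interneuron class, was 1.37-fold higher in CSS1 (0.46, SE 0.07, adjusted p = 0.00827) and kept its call without any single mouse, but lost it with median centring (0.0598), scale normalization (0.0647) or no dye term (0.0579). It had 0.17 in CSS2 (adjusted p = 0.487). The perineuronal net, the matrix coat around many parvalbumin cells, gave 0 of 9 calls in either strain, with 1 gene in CSS1 and 2 in CSS2 at an unadjusted p under 0.05. Its differences were positive for 2 of 9 genes in CSS1 and 4 of 9 in CSS2, with medians of -0.01 and -0.02. Hapln4, a link protein gene with the lowest p of the list in both strains, had 0.19 in CSS1 (adjusted p = 0.37) and 0.28 in CSS2 (adjusted p = 0.186).

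Other potassium channel families were set beside Kv3. Of 11 Kv1 genes and partners 0 were called in either strain, against 2.03% (CSS1) and 1.04% (CSS2) of all genes. At an unadjusted p under 0.05 there were 4 in CSS1 and 3 in CSS2, against 12.8% and 9.83% of all genes. The list held the genes Kcnab1 and Kcnab2 but not Kcnab3, a Kv channel beta subunit gene given below. Kcnab3 was called higher in CSS1 (0.45, adjusted p = 0.00513) and in CSS2 (0.33, adjusted p = 0.0354). Kcna1, the Kv1.1 subunit of axons, had 0.35 in CSS1 (adjusted p = 0.0945) and 0.38 in CSS2 (adjusted p = 0.101). No mouse of either strain overlapped Bl6 on Kcna1, and such a separation above Bl6 held for 3.71% (CSS1) and 3.43% (CSS2) of all tested probes. Cntnap2, which anchors Kv1 channels beside the node, had -0.14 in CSS1 (adjusted p = 0.204), and Kcna3 had -0.13 in CSS2 (adjusted p = 0.289). Differences of the Kv1 list were positive for 5 of 11 genes in CSS1 and 3 of 11 in CSS2, with medians of 0.00 and -0.06. Of 11 Kv2, Kv4 and BK genes and partners 0 were called in CSS1, against 2.03% of all genes. In CSS2 1 fell, where 0.379% of all genes were called lower. At an unadjusted p under 0.05 there were 2 in each strain, against 12.8% and 9.83% of all genes. Those in CSS2 were Kcnma1 and Kcnip3, which lies on chromosome 2 and had -0.26 (adjusted p = 0.162). Kcnma1, the pore of the BK channel, averaged -0.08 ± 0.08 in CSS2, against 0.21 ± 0.11 in Bl6 (SD, n = 4 each), a difference of -0.29 with an adjusted p of 0.0494 that was lost on leaving out any of 11 of the 12 mice.

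Some markers of other cell types also differed between the substitution strains and Bl6, and their part in the Kv3 differences was not tested. Of 10 measured myelin markers 7 rose in CSS1 and 6 in CSS2, where 1.17% and 0.661% of all genes were called higher. The median difference of these markers was 0.69 in CSS1 and 0.71 in CSS2. The per-mouse median of the myelin list lay between 0.59 and 0.79 in CSS1, between 0.55 and 0.85 in CSS2 and between -0.28 and 0.23 in Bl6. Mal, a myelin proteolipid whose gene lies on chromosome 2, had the largest difference of the list in both strains. It was 2.46-fold higher in CSS1 (adjusted p = 0.00241) and 2.33-fold higher in CSS2 (adjusted p = 0.00356). Of 10 astrocyte markers 3 rose in CSS1 (Gjb6, S100b and Ntsr2) and 1 in CSS2 (S100b), with a per-mouse list median of 0.18 to 0.32 in CSS1, 0.11 to 0.21 in CSS2 and -0.11 to 0.07 in Bl6.

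Cerebellar granule and Purkinje cells also use Kv3 channels, so cerebellum markers are given beside the CSS2 values. None of the 5 was called by limma in either strain, and all were above background on all arrays. At an unadjusted p under 0.05 there were 0 in CSS1 and 4 in CSS2, against 12.8% and 9.83% of all genes. The per-mouse list median was 0.76, 0.22, 0.24 and 0.76 in CSS2 mice 1, 4, 7 and 10, between -0.04 and 0.15 in CSS1 and between -0.38 and 0.31 in Bl6. Gabra6, a granule cell GABA receptor subunit, differed by 1.81 in CSS2 (SE 0.44, adjusted p = 0.111) and 0.19 in CSS1 (SE 0.44, adjusted p = 0.961), and the CSS1 value turned to -0.20 without Bl6 mouse 5. Over other settings the CSS2 difference ranged from 1.72 to 2.89, and it passed with array weights (2.15, adjusted p = 0.0311). On Kcnc1 probe 1 the CSS2 mice 1, 4, 7 and 10 stood at 0.36, 0.33, 0.41 and 0.61. A link between these values and the cerebellum markers was not tested.

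**Figure D4:**
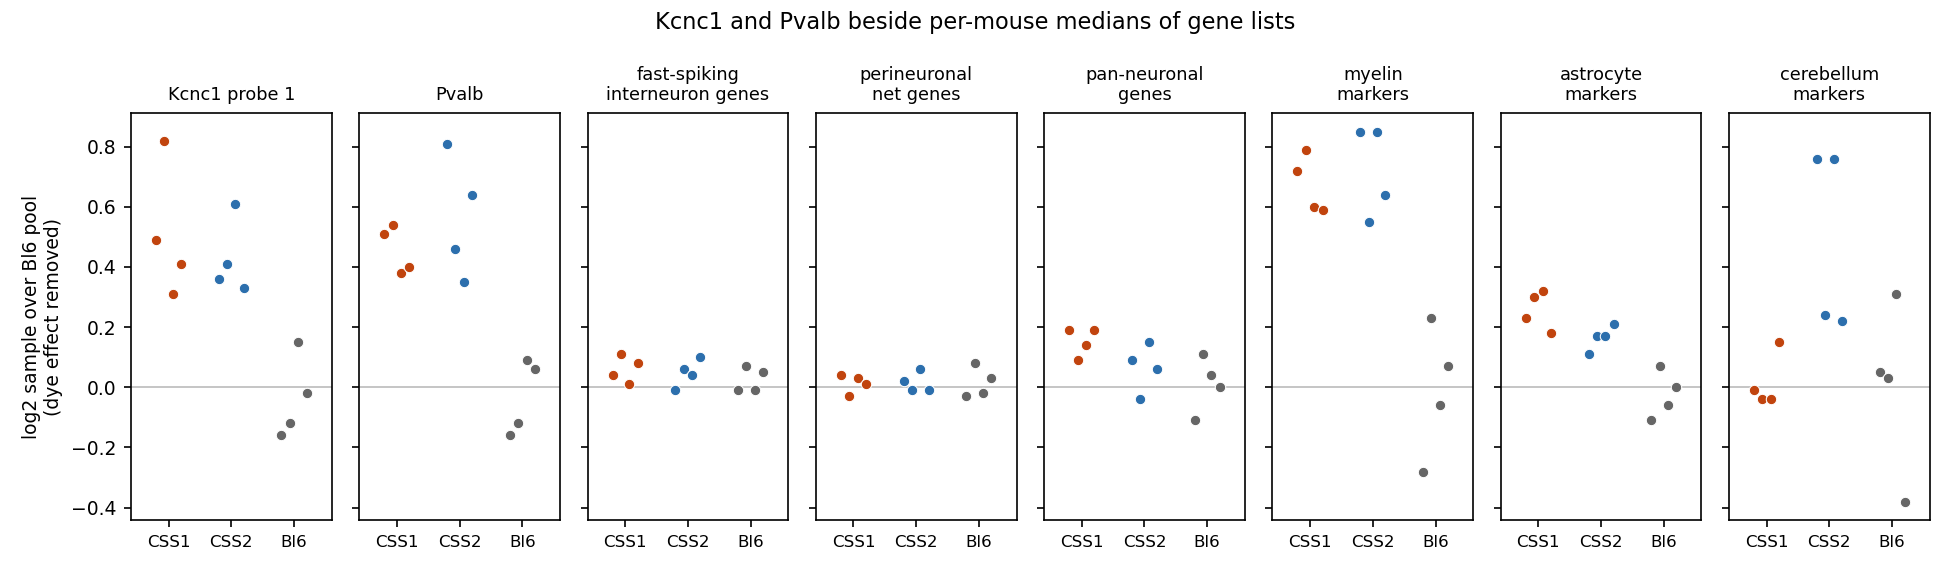
Log2 sample over Bl6 pool per mouse (points, dye effect removed) for Kcnc1 probe 1, Pvalb and the median of 6 gene lists, by strain (CSS1, CSS2, Bl6). The 16 fast-spiking interneuron genes have medians of -0.01 to 0.11 in all mice, the myelin medians of CSS1 and CSS2 mice are all at 0.55 or above, and the cerebellum medians are highest in CSS2 mice 1 and 10 (0.76 each).

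Pan-neuronal genes had a median difference of 0.17 in CSS1 and 0.10 in CSS2. Among the 9 measured, 1 was called in each strain, against 2.03% (CSS1) and 1.04% (CSS2) of all genes. It was Map2 in CSS1 (0.29, adjusted p = 0.0303), which lies on chromosome 1, and Nefh in CSS2 (0.44, adjusted p = 0.0241). At an unadjusted p under 0.05 there were 6 of 9 in CSS1 and 5 of 9 in CSS2, against 12.8% and 9.83% of all genes. Differences were positive for 7 of 9 genes in CSS1 and 6 of 9 in CSS2. Stmn2 had -0.31 in CSS1 (adjusted p = 0.0553) and -0.19 in CSS2 (adjusted p = 0.387), and Map2 had -0.21 in CSS2 (adjusted p = 0.16). Map2 lost its CSS1 call without any of 6 single mice and under 5 of 11 other settings, and Nefh its CSS2 call without any of 4 single mice and under 1 of 11. Of 7 microglia markers 1 rose in CSS1 (Ctss) and 0 in CSS2, and of 4 endothelial markers 1 rose in CSS1 (Slco1a4) and 0 in CSS2. Over all genes 1.17% (CSS1) and 0.661% (CSS2) were called higher. At an unadjusted p under 0.05 there were 2 of 7 microglia and 1 of 4 endothelial markers in CSS1, and 0 in CSS2 in either list. Differences of the microglia markers were positive for 7 of 7 in CSS1 and 5 of 7 in CSS2. Of 28 genes that mark dentate granule cells, hippocampus, thalamus, neocortex or choroid plexus, limma called 0 in either strain. At an unadjusted p under 0.05 there were 6 in each strain, against 12.8% (CSS1) and 9.83% (CSS2) of all genes.

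The genes whose pattern was most like that of a Kv3 gene were found by the Pearson correlation of log2 ratios over the 12 arrays, among 19205 genes. Strain differences entered this choice, so the strain differences of the chosen genes are not independent of those of the Kv3 probes. For Kcnc1, read by probe 1 alone, they were Pla2g4a (0.986), Mreg (0.979), S1pr5 (0.971), Tlr3 (0.961) and Kcnab3 (0.958). Within strains their correlations with Kcnc1 probe 1 were 0.965 for Pla2g4a, 0.928 for Mreg, 0.97 for S1pr5, 0.928 for Tlr3 and 0.874 for Kcnab3. The other Kcnc1 probes followed probe 1 less closely than these genes, at 0.58 for probe 2 and 0.64 for probe 3 over the arrays and 0.31 and -0.29 within strains. Kcnab3 encodes a Kv channel beta subunit and was higher in CSS1 by 0.45 (adjusted p = 0.00513), a call kept without any single mouse, and in CSS2 by 0.33 (adjusted p = 0.0354), a call lost without any of 9 single mice. S1pr5, a receptor known from oligodendrocytes, was higher in CSS1 by 0.47 (adjusted p = 0.0336) and in CSS2 by 0.53 (adjusted p = 0.0294), calls lost without any of 7 single mice in CSS1 and any of 8 in CSS2.

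For Kcnc2 the most like genes were Rgs4 (0.99), Zfp365 (0.969), Vxn (0.967), Dpy19l1 (0.965) and Fam107a (0.964). Rgs4, a brake on G-protein signalling, read 0.60, 0.36, 0.63 and 0.47 in CSS1 mice 3, 6, 9 and 12 and -0.13, -0.01, 0.14 and -0.07 in Bl6 mice 2, 5, 8 and 11. It was 1.45-fold higher in CSS1 (adjusted p = 0.0099), a call kept without any single mouse but lost with median centring (0.0708) or scale normalization (0.134). Rgs4 had 0.22 in CSS2 (adjusted p = 0.426). Fam107a was 1.93-fold higher in CSS1 (adjusted p = 0.00522, and 0.0823 with scale normalization) and had 0.47 in CSS2 (adjusted p = 0.178). Pla2g4a, Mreg, Rgs4 and Vxn lie on chromosome 1, and the other 6 of these genes lie on neither chromosome 1 nor 2.

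For Kcnc4 the highest correlations were with Dvl2 (0.889), Calhm1 (0.882), Smg5 (0.880), Arr3 (0.878) and Rtl8b (0.869), none of which passed in any comparison. Their fitted differences for CSS1 against Bl6 lay between 0.04 and 0.10, and those for CSS2 between 0.00 and 0.04. A likeness over arrays that share a pool, a dye balance and the strain groups is a description of these 12 mice.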

How the data were processed

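RNA of 12 mice was measured on dual-colour arrays, and per the labels each array paired a mouse with 1 Bl6 pool. The authors deposited spot intensity per channel (mean foreground, median background) per the file headers, and a table of normalized log2 ratios of a method that the sources used here do not give; it ran with the scanner ratios as sample over pool on 12 of 12 arrays, with column medians of -0.00502 to 0.00585. Background was corrected with normexp (offset 50) and arrays were normalized by global loess in limma 3.58.1 (R 4.3.3), with control spots at weight 0. Probes above a mean log2 intensity of 6.23, the 95th percentile of 1580 background-level control spots, were kept. Strain and dye were fitted over all 12 arrays with eBayes and Benjamini-Hochberg adjustment over 39239 probes. Probe names came from the platform annotation, which names 32431 probes. Named were all Kv3 probes, the 5 most correlated genes of each Kv3 gene, and list members past the threshold (otherwise up to 2 by p); some marker genes were added after their values were seen. Members and the 17 lists were chosen with earlier results of these data known. Motifs were counted with Python 3.11.15. The number of arrays limits precision. The fit was checked on simulated data.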

Additional observations from a re-analysis of the deposited data

Results flagged for a closer look

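Among the Kv3 probes no mouse stood apart from the others of its strain by Dixon's test, and no test between CSS1 and CSS2 passed. Of 123 groups of 4 mice tested, over the Kv3 probes and the other genes named, 7 were flagged, and chance flags about 1 in 20. CSS1 mouse 12 was low on Vip at 0.24, with the other CSS1 mice between 0.46 and 0.49. CSS2 mouse 7 was low on Lamp5 at 0.02 (others 0.30 to 0.35) and on Fam107a at 0.18 (others 0.50 to 0.53). CSS2 mouse 10 was high on Mreg at 0.42 (others 0.24 to 0.26), CSS2 mouse 4 was low on Cntnap2 at -0.12 (others -0.03 to -0.01), and CSS2 mouse 1 was low on Dpp10 at -0.09 (others 0.07 to 0.10). Bl6 mouse 11 was low on Kcne2 at -0.08, with the other Bl6 mice between 0.03 and 0.04.

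The strains' differences from Bl6 differed for Map2, at 0.50 for CSS1 against CSS2 (0.35 ± 0.03 in CSS1 and -0.14 ± 0.07 in CSS2, adjusted p = 0.000945), and for Scn1a, a sodium channel of fast-spiking cells on chromosome 2, at 0.25 (0.38 ± 0.06 in CSS1 and 0.13 ± 0.04 in CSS2, adjusted p = 0.0146; SD, n = 4 each). The Map2 call was lost without the dye term (adjusted p = 0.235), and the Scn1a call with median centring (0.249), scale normalization (0.244) or no dye term (0.573) and without CSS1 mouse 3 (0.0513) or CSS2 mouse 10 (0.0662).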

How the results depend on the processing

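For CSS1 against Bl6 the count of Kv3 probes called was 2, and it was 1 with median centring, scale normalization, no dye term or only the 2 strains compared, 3 with the authors' values or array weights (Kcnc1 probe 3 passing too), and 0 to 2 with a mouse left out (0 without Bl6 mouse 2 or CSS1 mouse 3). For CSS2 against Bl6 it was 0, and 1 with median centring, the authors' values, only the 2 strains compared or array weights, and 0 to 1 with a mouse left out. For CSS1 against CSS2 it was 0 under every setting run. Kcnc1 probe 1 in CSS1 against Bl6 was 0.54 without the dye term (adjusted p = 0.133) and 0.54 with CSS2 left out of the fit (0.0929), and 0.43 to 0.62 with a mouse left out. Kcnc2 was 0.37 with median centring (0.0875), 0.28 with scale normalization (0.105) and 0.31 to 0.39 with a mouse left out. Kcnc1 probe 1 in CSS2 against Bl6 passed at 0.51 with median centring (0.0405), 0.47 with the authors' values (0.036), 0.46 with only these strains (0.0213) and 0.48 with array weights (0.0197), and ranged from 0.39 to 0.53 with a mouse left out. Kcnc4 in CSS2 against Bl6 ranged from -0.01 to 0.04 with a mouse left out, Kcnc1 probe 1 in CSS1 against CSS2 from -0.03 (without CSS1 mouse 9) to 0.16, and Gabra6 in CSS1 against Bl6 from -0.20 to 0.54. The cause of these changes was not tested. No mouse number is shared between strains and the labels pair no mice; a block of consecutive mouse numbers (1 mouse of each strain in each of 4 blocks) in place of the dye term changed no call of a Kv3 probe. Over all probes the calls for CSS1 against Bl6 were 680, and 177 (median centring) to 1559 (array weights) otherwise, and for CSS2 against Bl6 355, and 149 (no dye term) to 595 (array weights).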
